A study of Homo sapiens with 6 samples.

Results

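The pentose phosphate pathway genes PGD, PGLS, RPIA, RPE, TKT and TALDO1, and IDH1, a gene for a cytosolic NADPH enzyme, were followed in A549 cells after knockdown of the long noncoding RNA SNHG17. These 7 genes were taken by name from a table of read counts for 54261 genes. Each had a row, and each passed the filter on low counts. A549 is an established human lung adenocarcinoma cell line. The cells were given an siRNA against SNHG17 (si-SNHG17, 3 libraries, labelled as knockdown) or a control siRNA (si-NC, 3 libraries, labelled as control). Both groups were grown in medium with fetal bovine serum. The siRNA sequences, their dose and the time after treatment were not among the information used here. The comparison asks how transcript levels differ once SNHG17 is lowered.

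The pentose phosphate pathway branches from glycolysis at glucose 6-phosphate. Its oxidative branch makes NADPH, the electron donor for fatty acid synthesis and for keeping glutathione reduced, and ends at ribulose 5-phosphate. The non-oxidative branch rearranges pentose phosphates, giving ribose 5-phosphate for nucleotides or returning carbon to glycolysis. Several of the pathway's genes are known targets of the transcription factor NRF2, which is held active in A549 by a mutation of its inhibitor KEAP1.

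The libraries held 8643076 to 12477214 counts. Levels are given as CPM, counts scaled to a library of 1000000, with library sizes adjusted by TMM. SNHG17, on chromosome 20 from 38420588 to 38435328, had 7.82, 8.39 and 11.3 CPM in si-SNHG17 libraries, against 38.7, 36.2 and 51.4 CPM in si-NC libraries. Replicate 3 of si-NC stood apart from its group: a chi-square test of counts gave 8.85 and 8.40 per degree of freedom against the other si-NC libraries, which differed by 2.25. The epithelial markers KRT8, KRT18, KRT19, CDH1 and EPCAM together took 5003 to 5081 CPM in si-SNHG17 libraries and 8337 to 9162 CPM in si-NC libraries (scaled by library totals), though EPCAM itself was at 0.479 to 1.71 CPM. KRT8 and KRT18 made up most of that sum, and KRT19 went the other way, with 116 ± 5.51 CPM in si-SNHG17 libraries, against 86.0 ± 10.1 CPM in si-NC libraries (log2 fold change 0.43, edgeR adjusted p of 0.00232). The 7 immune markers summed to 29.5 to 32.6 CPM in si-SNHG17 and 37.8 to 51.4 CPM in si-NC, with PTPRC and CD3E at 0. CD14 made up most of that sum, with 19.6 ± 1.55 CPM in si-SNHG17, against 36.1 ± 6.54 CPM in si-NC (log2 fold change -0.88, edgeR adjusted p of 0.000169). ITGAM went the other way, with 9.40 ± 0.440 CPM in si-SNHG17, against 6.64 ± 0.515 CPM in si-NC (log2 fold change 0.50, edgeR adjusted p of 0.0256). The 7 stromal and endothelial markers summed to 22.9 to 30.1 CPM in si-SNHG17 and 21.2 to 27.9 CPM in si-NC, with COL1A2 and COL3A1 at 0. COL1A1 made up nearly all of that sum, with 25.3 ± 3.68 CPM in si-SNHG17, against 24.3 ± 3.67 CPM in si-NC (log2 fold change 0.06, edgeR adjusted p of 0.752). The part of these marker levels in the results was not tested.

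Of the 7 genes, 4 fell and 1 rose in si-SNHG17 at an adjusted p under 0.05 by edgeR's quasi-likelihood test. PGD fell by far the most, to 27.1% of its mean in si-NC. IDH1, RPE and RPIA fell by smaller amounts, PGLS rose, and TKT and TALDO1 did not pass the test. Among all 15614 genes tested, 39.1% passed, 19.6% as higher and 19.6% as lower. The median log2 fold change (si-SNHG17 minus si-NC) was -0.47 over the 7 genes, beside 0.01 over all genes tested. The groups did not overlap for the 5 genes that passed and overlapped for the other 2, and over all genes tested they did not overlap for 49.4%. Fewer cells expressing a gene and less RNA per cell cannot be told apart in these bulk libraries.

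**Figure D1:**
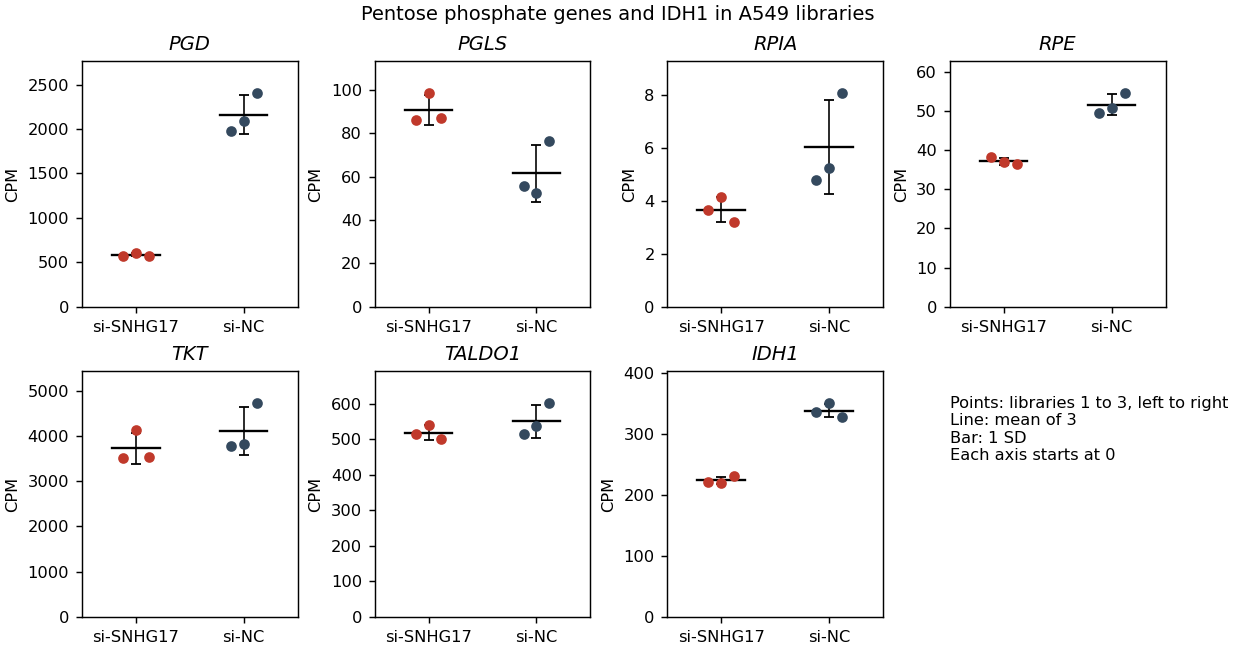
Level of each gene (CPM, linear axes from 0) in the 3 si-SNHG17 and 3 si-NC libraries, with each group's mean (line) and SD (bar). PGD sits at 575 to 604 CPM in si-SNHG17 and at 1981 CPM or above in si-NC, while the TKT and TALDO1 groups overlap.

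In the oxidative branch, PGLS and PGD moved in opposite directions. PGD encodes 6-phosphogluconate dehydrogenase, which makes NADPH while it converts 6-phosphogluconate to ribulose 5-phosphate. In RefSeq (GRCh38.p14), PGD spans bases 10399064 to 10420511 of chromosome 1. In the order of the replicate numbers, PGD had 577, 604 and 575 CPM with si-SNHG17, against 1981, 2092 and 2403 CPM with si-NC. All si-SNHG17 libraries were low and close together, and the gap between the groups was many times the spread within either. The means were 585 ± 16.5 CPM in si-SNHG17 and 2158.5 ± 219 CPM in si-NC (SD, 3 libraries each). The log2 fold change was -1.88 (standard error 0.0837, 95% interval -2.06 to -1.70), with an edgeR adjusted p of 2.58e-09. Ranked by log2 fold change from the lowest, PGD was number 82 of the 15614 genes tested.

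PGLS encodes 6-phosphogluconolactonase, which supplies the substrate of PGD by opening the lactone ring. It lies on chromosome 19 from 17511649 to 17521288, and RNAs annotated on the opposite strand overlap it, so reads may be shared if counting ignored strand. PGLS had 86.2, 98.4 and 87.2 CPM in si-SNHG17 libraries, against 55.7, 52.4 and 76.2 CPM in si-NC libraries. Every si-SNHG17 library was above every si-NC library, and si-NC replicate 3 was the nearest to them. PGLS averaged 90.6 ± 6.79 CPM in si-SNHG17 and 61.4 ± 12.9 CPM in si-NC (SD, 3 libraries each). The log2 fold change was 0.56 (standard error 0.126), with an edgeR adjusted p of 0.00296. Without si-NC replicate 3 it was 0.75 (adjusted p = 1.83e-06 by edgeR). As raw counts within a library, there were 14.9, 16.3 and 15.2 PGLS counts per 100 PGD counts in si-SNHG17, against 2.81, 2.50 and 3.17 in si-NC.

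RPIA and RPE stand where the branches meet, and both fell. RPIA encodes ribose 5-phosphate isomerase, which turns ribulose 5-phosphate into the ribose used for nucleotides, and lies on chromosome 2 from 88691673 to 88750929. It was the scarcest of the 7 genes, with 35, 52 and 28 counts in si-SNHG17 libraries, against 42, 53 and 86 in si-NC libraries. RPIA had 3.65, 4.15 and 3.19 CPM in si-SNHG17, against 4.78, 5.23 and 8.05 CPM in si-NC. The groups did not overlap, but their nearest libraries were close, and si-NC replicate 3 was well above its group. The log2 fold change of RPIA was -0.71 (standard error 0.244, 95% interval -1.23 to -0.19), with an edgeR adjusted p of 0.0322. That call was lost without si-NC replicate 3, where the log2 fold change was -0.44 (adjusted p = 0.171 by edgeR). It was also lost without si-SNHG17 replicate 1 (-0.70, adjusted p = 0.0816 by edgeR) or replicate 3 (-0.62, adjusted p = 0.106 by edgeR), with a replicate block (-0.68, adjusted p = 0.0519 by edgeR) and with DESeq2 (-0.72, adjusted p = 0.0521).

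RPE encodes ribulose 5-phosphate 3-epimerase, which makes xylulose 5-phosphate, the sugar from which transketolase takes its carbon units. It lies on chromosome 2 from 210002638 to 210022260, where KANSL1L overlaps it on the opposite strand. RPE had 38.2, 36.8 and 36.5 CPM in si-SNHG17 libraries, against 49.4, 50.7 and 54.5 CPM in si-NC libraries. The groups were tight and well apart. RPE averaged 37.2 ± 0.894 CPM in si-SNHG17 and 51.5 ± 2.65 CPM in si-NC (SD, 3 libraries each). The log2 fold change was -0.47 (standard error 0.0943), with an edgeR adjusted p of 0.00127.

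TKT and TALDO1, the enzymes that rearrange carbon in the non-oxidative branch, did not pass the test. TKT encodes transketolase, which moves 2-carbon units between sugar phosphates, and lies on chromosome 3 from 53224712 to 53256022. TKT had 3517, 4123.5 and 3529.9 CPM in si-SNHG17 libraries, against 3772, 3823.5 and 4720.1 CPM in si-NC libraries. The groups overlapped, and in each a single library (si-SNHG17 replicate 2, si-NC replicate 3) was above the other two. The log2 fold change of TKT was -0.14, with a 95% interval from -0.35 to 0.07 and an edgeR adjusted p of 0.271. Without si-NC replicate 3 it was -0.03 (adjusted p = 0.771 by edgeR).

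TALDO1 encodes transaldolase, which moves 3-carbon units, and lies on chromosome 11 from 747464 to 765012. TALDO1 had 515, 541 and 499.9 CPM in si-SNHG17 libraries, against 513, 536 and 601 CPM in si-NC libraries. Only si-NC replicate 3 was above the range of the si-SNHG17 libraries. The log2 fold change of TALDO1 was -0.08, with a 95% interval from -0.25 to 0.08 and an edgeR adjusted p of 0.425. These intervals exclude a change of TKT or TALDO1 as large as that of PGD, whose own interval ended at -1.70.

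IDH1 encodes the cytosolic isocitrate dehydrogenase, which makes NADPH outside the pentose phosphate pathway, and lies on chromosome 2 from 208236227 to 208255071. IDH1 had 221, 219.7 and 231 CPM in si-SNHG17 libraries, against 337, 351 and 328 CPM in si-NC libraries. The groups were tight and did not overlap. IDH1 averaged 224 ± 6.14 CPM in si-SNHG17 and 339 ± 11.2 CPM in si-NC (SD, 3 libraries each), a log2 fold change of -0.60 (standard error 0.0716) with an edgeR adjusted p of 1.84e-05. Counts on the neighbouring antisense row, IDH1-AS1, were 0.567 to 1.49 per 100 IDH1 counts in si-SNHG17 libraries and 0.591 to 1.20 in si-NC libraries.

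**Figure D2:**
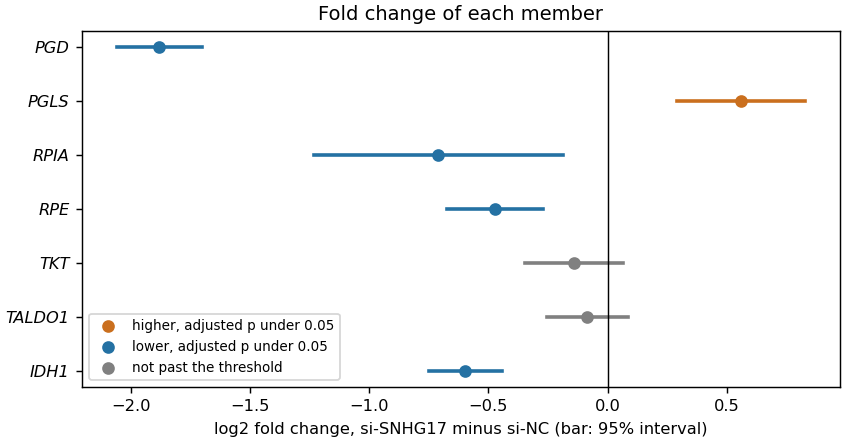
Log2 fold change of each gene, si-SNHG17 minus si-NC, with its 95% interval, ordered from the oxidative branch to the non-oxidative branch and IDH1. PGD stands at -1.88, IDH1, RPE and RPIA between -0.71 and -0.47, PGLS at 0.56, and the intervals of TKT and TALDO1 include 0.

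The balance among the 7 transcripts therefore differed between the groups, which can be read from raw counts without any scaling between libraries. There were 16.4, 14.7 and 16.3 PGD counts per 100 TKT counts in si-SNHG17 libraries, against 52.5, 54.7 and 50.9 in si-NC libraries. The ratio averaged 15.8 ± 0.976 with si-SNHG17, against 52.7 ± 1.91 with si-NC (SD, 3 libraries each). Within si-NC it varied less than the PGD level did, and si-NC replicate 3, which was high for both genes, was not high for their ratio. TALDO1 gave 14.6, 13.1 and 14.2 counts per 100 TKT counts in si-SNHG17, against 13.6, 14.01 and 12.7 in si-NC, and here the groups overlapped. PGD made up 10.7 to 11.6% of the counts of the 7 genes in si-SNHG17 libraries and 29.3 to 30.3% in si-NC libraries. Among 10 ratios computed, an exact two-sided permutation test gave p = 0.1 for the log ratio of PGD over TKT. The same permutation test gave p = 0.4 for TALDO1 over TKT. The smallest p that 3 against 3 allows is 0.1, so no ratio could fall below 0.05 by this test, with or without adjustment.

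Levels of different genes were compared per kilobase of a principal transcript of each gene (GENCODE 29), that with the longest 3′ untranslated region. That transcript had 3010 bases for TKT and 1885 for PGD. Other choices of transcript were not tried, and the order below holds for these lengths only. In si-SNHG17 the order was TKT (1237 ± 115 CPM per kb), TALDO1 (385 ± 15.5), PGD (311 ± 8.77), IDH1 (94.0 ± 2.58), PGLS (88.1 ± 6.60), RPE (14.5 ± 0.348) and RPIA (1.98 ± 0.261; SD, 3 libraries each). In si-NC it was TKT (1364 ± 177 CPM per kb), PGD (1145 ± 116), TALDO1 (409 ± 33.8), IDH1 (142 ± 4.71), PGLS (59.8 ± 12.6), RPE (20.1 ± 1.03) and RPIA (3.26 ± 0.960). Per kilobase, PGD and TALDO1 thus changed places. In CPM, without division by length, they did not: PGD was above TALDO1 in every library, with means of 585 and 519 CPM in si-SNHG17. Neighbours whose libraries overlapped were IDH1 and PGLS in si-SNHG17, and TKT and PGD in si-NC. In all 6 libraries TKT was the highest and RPIA the lowest.

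Copies of the members can share their reads. PGDP1, a processed pseudogene of PGD on chromosome 18 from 31962129 to 31963716, matches the PGD transcript at 93.4% of 1450 aligned bases. PGDP1 had 11.99, 13.0 and 14.02 CPM in si-SNHG17 libraries, against 42.2, 47.8 and 45.7 CPM in si-NC libraries, with a log2 fold change of -1.80 (standard error 0.114, edgeR adjusted p of 5.40e-08). It held 2.08, 2.15 and 2.44 counts per 100 PGD counts in si-SNHG17, against 2.13, 2.29 and 1.90 in si-NC, a share that overlapped between the groups. How reads shared between PGD and PGDP1 were counted is not known here.

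RPEL1, an intronless protein-coding copy of RPE on chromosome 10 from 103245887 to 103248016, matches RPE at 96.8% of 1785 aligned bases. RPEL1 had 4.59, 5.91 and 4.10 CPM in si-SNHG17 libraries, against 8.08, 9.37 and 6.74 CPM in si-NC libraries (log2 fold change -0.71, edgeR adjusted p of 0.0145). The RPEL1 call was lost when si-SNHG17 replicate 1, si-SNHG17 replicate 3 or si-NC replicate 2 was left out (edgeR adjusted p of 0.0525, 0.0609 and 0.0744). Its share, 11.2 to 16.1 counts per 100 RPE counts in si-SNHG17 and 12.4 to 18.5 in si-NC, overlapped between the groups. With the counts of such copies added to their parent genes, an alternative chosen after the data were seen, the log2 fold changes were -1.88 for PGD and -0.50 for RPE. Of the transketolase-like genes, TKTL1 held 4 counts over the si-SNHG17 libraries and 1 over the si-NC libraries, and TKTL2 held 0 in all.

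**Figure D3:**
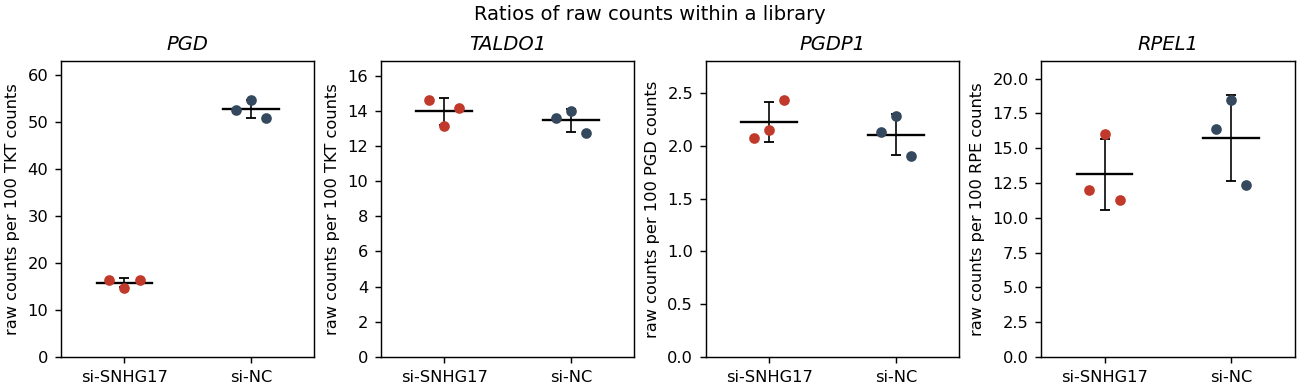
Ratios of raw counts within each library (linear axes from 0) for PGD and TALDO1 per 100 TKT counts, PGDP1 per 100 PGD counts and RPEL1 per 100 RPE counts, with mean and SD of 3 libraries. The PGD to TKT ratio is 14.7 to 16.4 in si-SNHG17 and 50.9 to 54.7 in si-NC, while in the other 3 ratios the groups overlap.

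Promoters were searched for TGACNNNGC, the core of the antioxidant response element at which NRF2 acts, on both strands. Of the windows from 250 bases before to 50 bases after a gene's start (RefSeq, GRCh38.p14), 13.3% of 35116 held it. All 7 genes had such a window, 8 windows in all, and PGD, IDH1 and RPE held 1 match each. A further window of IDH1, at chr2:208254409-208254708, held 0 matches. The matches lay 201 bases (PGD), 143 bases (IDH1) and 151 bases (RPE) before the start. The stretches around them are shown because these are the members that hold the motif. They are PGD at chr1:10398837-10398896 on the plus strand, IDH1 at chr2:208255181-208255240 on the minus strand and RPE at chr2:210002461-210002520 on the plus strand, each 5′ to 3′ in the gene's direction with the match in capitals:
PGD (match on the opposite strand): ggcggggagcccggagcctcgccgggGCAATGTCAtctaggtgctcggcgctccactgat
IDH1: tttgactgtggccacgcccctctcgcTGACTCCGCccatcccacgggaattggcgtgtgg
RPE: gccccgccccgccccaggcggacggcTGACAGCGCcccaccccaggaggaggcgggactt
These letters were not found in the windows of TKT, TALDO1, PGLS and RPIA. Of 9810 genes tested that had a window, 1903 (19.4%) held a match, and their median log2 fold change was 0.03, beside 0.02 for those without. A match is a description of sequence and not a measured binding site.

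A further sequence was looked up in the 3′ untranslated regions. The 6 bases CTCTGT had stood out in an earlier search of these same libraries for 3′ sequences carried by lowered mRNAs, so they were chosen on these data and their presence tests nothing. They occurred in the 3′ untranslated region of PGD, RPIA and RPE, and not in that of TKT, TALDO1, PGLS or IDH1. Of the 7 members, 3 thus held the 6 bases, beside 46.6% of the mRNAs tested that had such a region. The sites are shown because these are the members that hold them. They lie at base 158 and base 335 of the 395 bases of PGD (chr1:10419898-10419921 and chr1:10420075-10420098), base 759 of the 857 of RPIA (chr2:88750828-88750851) and base 686 of the 1785 of RPE (chr2:210020468-210020491; GENCODE 29, GRCh38, plus strand), written 5′ to 3′ with the 6 bases in capitals:
PGD, base 158: gtaaagtagCTCTGTgagagccac
PGD, base 335: aactggaacCTCTGTatcatgcgg
RPIA: aatatttttCTCTGTtcctttgtt
RPE: aagtaaaacCTCTGTttggaggta
Among 11619 mRNAs tested that had such a region, 46.6% held at least 1 copy and 22.8% at least 2. Those with at least 1 had a median log2 fold change of -0.03 and 25.2% were called lower, against 0.09 and 15.5% of those with none. Their regions were also longer, with a median of 2112 bases against 562. Whether the 6 bases have any part in the fall of PGD, RPE or RPIA was not tested.

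The genes that neighbour the pathway were read from lists fixed by name. Over all genes tested, 39.1% passed, 19.6% as higher and 19.6% as lower, with a median log2 fold change of 0.01. The count of each list is to be read beside those shares. In the list of 14 other pentose phosphate and ribose phosphate genes, 11 were tested, 5 fell and 1 rose, with a median log2 fold change of -0.24. H6PD, which runs the oxidative steps inside the endoplasmic reticulum, had 101, 107 and 101 CPM in si-SNHG17 libraries, against 146, 160 and 126 CPM in si-NC libraries (log2 fold change -0.48, edgeR adjusted p of 0.00102). SHPK, which phosphorylates sedoheptulose to feed the non-oxidative branch, fell by 0.39, and RPEL1 by 0.71. As a copy that can share reads with RPE, RPEL1 may not count as a separate fall. PGM1, which interconverts glucose phosphates, fell by 0.25, and PRPS1, which makes the activated ribose phosphate of nucleotide synthesis, by 0.24. RBKS, the ribokinase, rose by 0.51. The H6PD call held when any single library was left out. The SHPK call was lost without si-NC replicate 2 (edgeR adjusted p of 0.0562), and that of RBKS without si-NC replicate 1 (0.065) or si-SNHG17 replicate 3 (0.093). PGM1 and PRPS1 lost theirs under most single-library omissions, with edgeR adjusted p of 0.0541 to 0.151 for PGM1 (all but si-NC replicate 3) and 0.0884 to 0.181 for PRPS1 (either replicate 1, si-SNHG17 replicate 3 or si-NC replicate 2). Both calls were also lost with the replicate block (0.071 for PGM1, 0.066 for PRPS1), with library totals (0.065 and 0.0716) and with no low-count filter (0.0993 and 0.0775), and that of PGM1 with DESeq2 (adjusted p of 0.0538). PGM2 (-0.15), DERA (-0.29), PRPS2 (-0.18), PRPSAP1 (-0.03) and PRPSAP2 (0.27) did not pass, and TIGAR, with 20 counts over the si-SNHG17 libraries and 12 over the si-NC libraries, was not tested. Of these, DERA passed without si-SNHG17 replicate 2, PRPS2 without si-NC replicate 3 and PRPSAP2 with library totals (edgeR adjusted p of 0.0288, 0.0447 and 0.0408).

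Of 12 genes listed as other NADPH enzymes and NAD kinases, 11 were tested, 3 fell and 2 rose, with a median log2 fold change of -0.11. Beside them, 39.1% of all genes tested passed, 19.6% in each direction. Whether each listed enzyme works with NADP or NAD in these cells was not tested. The 3 that fell encode mitochondrial enzymes, but so do FDXR, which rose, and IDH2, which did not pass. The malic enzyme ME2 had 35.0, 33.3 and 34.2 CPM in si-SNHG17 libraries, against 54.2, 45.8 and 46.3 CPM in si-NC libraries (log2 fold change -0.51, edgeR adjusted p of 0.00131). ME3, a further malic enzyme, fell by 0.64, and MTHFD2L, a folate dehydrogenase, by 0.79. NADK, the cytosolic kinase that makes NADP from NAD, had 111, 115 and 103 CPM in si-SNHG17, against 80.1, 80.2 and 98.3 CPM in si-NC (log2 fold change 0.35, edgeR adjusted p of 0.0112). FDXR, a mitochondrial reductase that consumes NADPH, rose by 0.98. IDH2, the mitochondrial counterpart of IDH1, had 111, 130 and 114 CPM in si-SNHG17, against 117, 110 and 117 CPM in si-NC; its log2 fold change of 0.04 (95% interval -0.14 to 0.23) did not pass. The folate enzymes MTHFD1 (-0.11) and MTHFD2 (-0.06), the transhydrogenase NNT (-0.13), NADK2 (0.05) and ALDH1L2 (-0.22) did not pass either. The call of NADK was lost without si-NC replicate 2 (adjusted p = 0.0611 by edgeR), and that of MTHFD2L without si-SNHG17 replicate 2 (0.0528) or si-NC replicate 1 (0.0524).

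At the glycolytic steps where the pathway leaves and rejoins, 9 of 10 genes were tested, 6 rose and 2 fell, with a median log2 fold change of 0.42. Beside them, 19.6% of all genes tested rose and 19.6% fell. GPI, which draws on the same glucose 6-phosphate as the pathway, had 1255, 1026 and 1201 CPM in si-SNHG17 libraries, against 1816, 1698 and 1925 CPM in si-NC libraries (log2 fold change -0.64, edgeR adjusted p of 4.84e-05). TPI1, which interconverts the triose phosphates, fell by 0.57. The phosphofructokinases PFKM (0.74) and PFKP (0.42) rose, as did HK2, ALDOA, ALDOC and GAPDH, while PFKL (0.24, adjusted p = 0.0552 by edgeR) passed only under some alternatives, among them the fits without si-SNHG17 replicate 3 (0.0472) or si-NC replicate 3 (0.00193). HK1, a hexokinase common to most cells, was listed at 0 in all 6 libraries. How the annotation and counting treated HK1 is not known here, so no level is drawn from that 0.

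Among 8 genes of NRF2 and its regulation, 7 were tested, 4 rose and 1 fell, with a median log2 fold change of 0.27. Beside them, 19.6% of all genes tested rose and 19.6% fell. NFE2L2, which encodes NRF2 itself, had 185, 181 and 199 CPM in si-SNHG17 libraries, against 126, 117 and 117 CPM in si-NC libraries (log2 fold change 0.65, edgeR adjusted p of 1.84e-05). BACH1, a repressor that competes for the same DNA element, had 123, 122 and 131 CPM in si-SNHG17, against 47.8, 47.3 and 45.1 CPM in si-NC. Its log2 fold change was 1.42 (standard error 0.0833), with an edgeR adjusted p of 2.76e-08. Of the small MAF partners shared by NRF2 and BACH1, MAFF rose by 0.47 and MAFG by 0.27. MAFK, with 43 counts over the si-SNHG17 libraries and 13 over the si-NC libraries, was not tested. KEAP1 (-0.08) and CUL3 (-0.05), parts of the ligase that marks NRF2 for degradation, did not pass, and their partner RBX1 fell by 0.40 although its groups overlapped. Leaving out a library ended the RBX1 call in 3 fits, those without replicate 1 (edgeR adjusted p of 0.103) or replicate 3 (0.132) of si-SNHG17 and without replicate 2 of si-NC (0.064). The MAFF call was lost without si-SNHG17 replicate 3 (0.0505) or si-NC replicate 2 (0.0542). That of MAFG was lost without si-SNHG17 replicate 1 (0.0528), si-SNHG17 replicate 2 (0.0615) or si-NC replicate 1 (0.055).

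**Figure D4:**
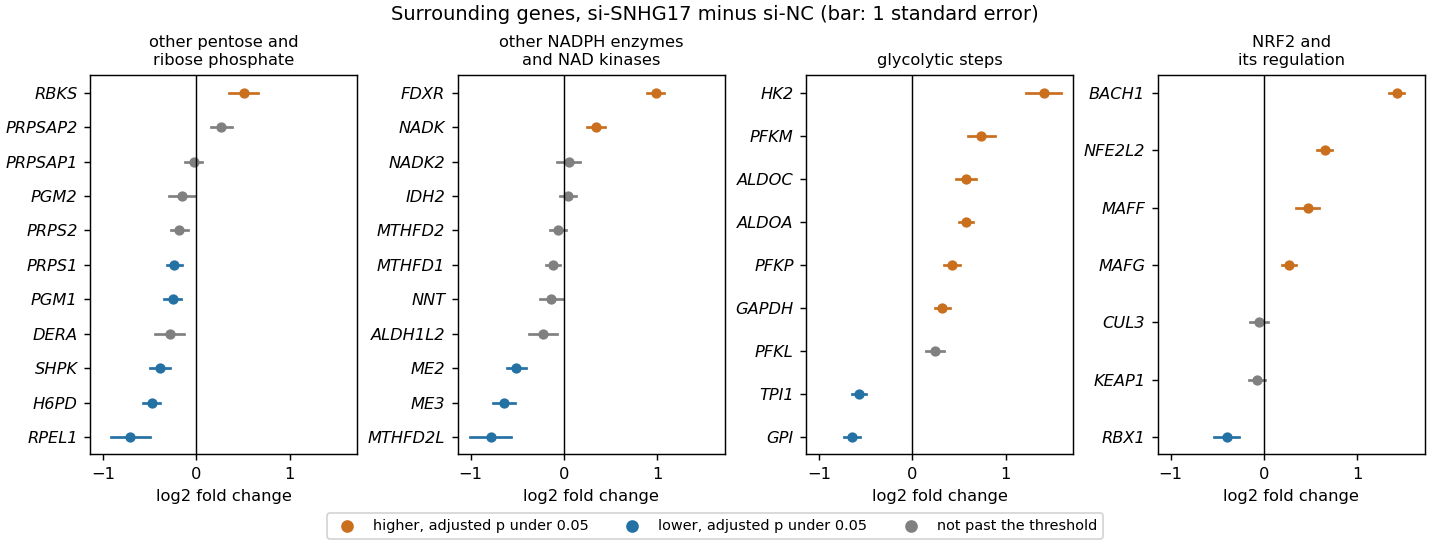
Log2 fold change (si-SNHG17 minus si-NC, bar of 1 standard error) of the tested genes in the 4 surrounding lists, coloured by whether edgeR's adjusted p was under 0.05. The medians are -0.24 for other pentose and ribose phosphate genes, -0.11 for other NADPH enzymes, 0.42 for the glycolytic steps and 0.27 for NRF2 and its regulation.

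For each gene that passed, up to 3 mRNAs with a near profile were named by Euclidean distance between centred log2 CPM values over the 6 libraries, as a description among mRNAs with a mean of at least 5 CPM. Those nearest to PGD were SEMA6B (distance 0.209), PSKH1 (0.236) and GSS (0.243), with log2 fold changes of -1.90, -1.71 and -1.70. EMC10 (0.0482), LRP5 (0.0494) and PPP1R18 (0.0533) were nearest to RPE. TMED7 (0.0637), IGSF3 (0.0676) and TIMM8B (0.0802) were nearest to IDH1. DPP7 (0.0811) and A4GALT (0.125) were near to PGLS, and C1orf35 (0.256), ATP6V0E2 (0.262) and SLC25A11 (0.262) to RPIA.

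**Figure D5:**
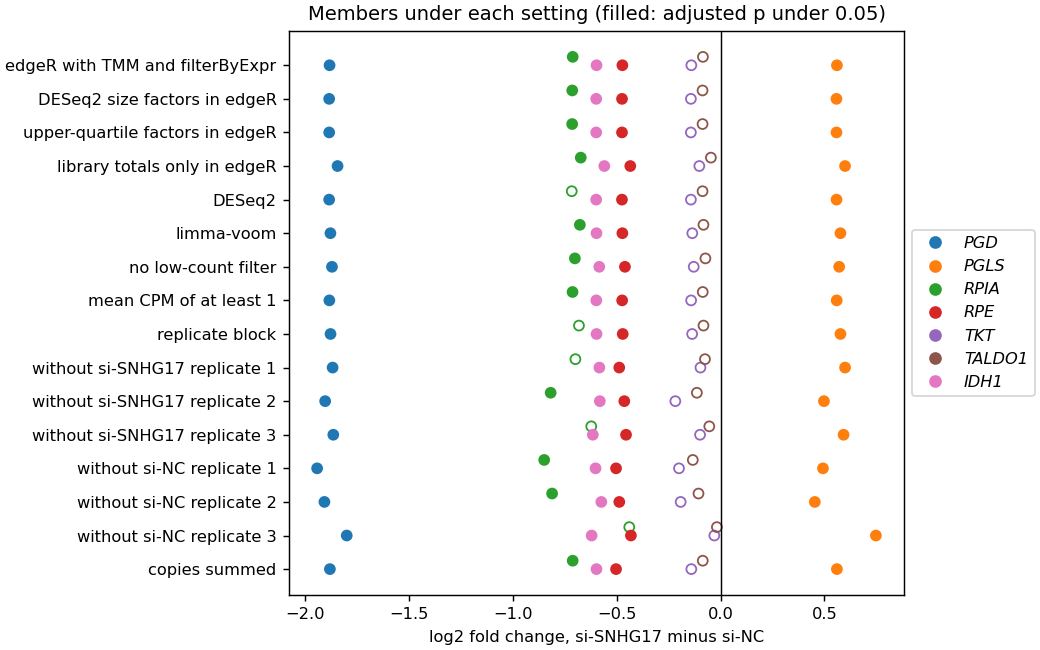
Log2 fold change of the 7 genes under the reported fit and each alternative (rows), filled where the adjusted p was under 0.05; RPIA and TALDO1 are drawn slightly above their row so that points do not hide each other. PGD stays between -1.94 and -1.80 and PGLS between 0.45 and 0.75, while RPIA is open in 5 rows and TKT and TALDO1 in all.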

How the data were processed

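Total RNA of 6 libraries was prepared with an Ion Total RNA-Seq kit and read single-end on an Ion Proton, per the labels' protocols, and the table the authors deposited holds raw counts per gene. GRCh38 is the build per the submitters' processing notes; the choice of aligner, counter, annotation and strand setting is not given in the sources used here. Groups and columns came from the titles. Nothing says that the libraries were separate cultures, so p-values measure their spread, which may be technical. No 2 libraries were identical. Chi-square values per degree of freedom ran from 2.25 to 8.85 within groups and 38.4 to 55.3 between them.

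The test was edgeR's quasi-likelihood test (edgeR 4.0.16 under R 4.3.3; filterByExpr, TMM, glmQLFit, glmQLFTest, group as the only term), with Benjamini-Hochberg adjustment over 15614 genes and a threshold of 0.05. Alternatives were other scalings, DESeq2 1.42.0, limma-voom (limma 3.58.1), other filters, a replicate block, leaving out each library and, added later, summed copies. The members and lists were chosen with earlier results of these data known. Genes named are the 7 members, SNHG17, listed genes and nearest profiles. Positions are RefSeq's; copies were aligned with blastn 2.17.0. Some genes of the pathway are not reported here.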

Additional observations from a re-analysis of the deposited data

How the results depend on the processing

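SNHG17 was lower under all 14 alternatives run for it (-2.37 to -2.04 on the log2 scale, adjusted p at most 1.05e-05). PGD (-1.94 to -1.80), PGLS (0.45 to 0.75), RPE (-0.50 to -0.43) and IDH1 (-0.62 to -0.56) kept their direction and their call under 15 alternatives, and TKT (-0.22 to -0.03) and TALDO1 (-0.13 to -0.02) did not pass under any of them. RPIA lost its call in 5, with -0.7165 by DESeq2, -0.6818 with the replicate block and -0.8492 to -0.4396 over the fits without each library; it had the lowest counts of the members, and the cause was not tested. Of the members, 3 to 4 fell and 1 rose without each library. Over all genes, 2473 to 3335 rose and 2438 to 3266 fell without each library. The replicate block called 5579 genes, 5515 of them shared with the 6112 of the fit without it. Deviations from the group means correlated at 0.06, -0.11 and -0.09 between same-numbered libraries, so the numbers were not taken to pair them. Library totals without scaling gave 55.5% of calls as higher, against 50.0%, and a median log2 fold change of 0.045, against 0.008.

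Among other pentose and ribose phosphate genes, 3 fell with library totals, with no low-count filter or with the replicate block, and 1 to 6 without each library; 2 rose with library totals and 0 to 1 without each library. Without each library, 1 to 2 of the other NADPH enzymes rose, and 0 to 1 of the NRF2 list fell. Of single values in these lists and the copies, 528 stayed on their side, 33 lost and 7 gained the threshold, and 6 changed sign, none past the threshold. Those were PRPSAP1 (0.0066 with library totals; -0.102 to 0.0125 without each library, positive without si-NC replicate 2), IDH2 (-0.025 to 0.0911, negative without si-SNHG17 replicate 2), NADK2 (-0.0309 to 0.1051, negative without either replicate 3) and MTHFD2 (-0.1371 to 0.0044, positive without si-NC replicate 1). The causes were not tested.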
